A study of Mus musculus with 6 samples.

Results

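Genes of microglia and of the macrophages at the borders of the brain were followed in cerebral cortex by RNA-seq. The set held 29 genes, taken by symbol from a count table of 33274 gene rows, and each symbol had 1 row. All 29 passed the filter on low counts, among 18327 genes tested. The genes were grouped by role into 11 homeostatic genes, 6 lineage and pan-leukocyte genes, 9 activation-linked genes and 3 border macrophage genes. The rule matched gene names and used no measured value.

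The cortex came from 6 wild-type F2 females of ICR, an outbred mouse stock, aged 6 weeks. In the methylphenidate lineage (3 libraries) the grandsire had received methylphenidate, a blocker of dopamine and noradrenaline transporters, under the skin at 15 mg/kg for 21 days. In the saline lineage (3 libraries) the grandsire had received saline at 10 mL/kg over the same period. Descent ran through F1 males, 1 taken from each litter, and the females mated in both generations had received no drug. The labels do not tie an F2 animal to a litter or sire, so p-values measure the spread between these 6 samples. The series asks whether treatment of males is seen in the brains of their grandchildren.

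Microglia are the resident macrophages of the brain parenchyma. They depend on signalling through the Csf1r receptor and on the transcription factor Spi1 (PU.1), and in the undisturbed brain they carry a surface set that includes P2ry12, Tmem119 and Cx3cr1. When they engage debris or damaged cells they raise genes of phagocytosis, lysosomes and complement, while homeostatic genes tend to fall. Border macrophages lie in the meninges, around vessels and in the choroid plexus, and are marked by Mrc1, Cd163 and Lyve1.

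Total counts lay between 23896752 and 28120640 per library. The lowest count of any member was 19, for Lyve1 in saline replicate 2, so no member was at 0 in any library. Defining genes of microglia were present in every library. Levels are given as CPM (the count as a share of the library total, scaled by the TMM factors of edgeR). Differences are log2 differences, the log2 fold change of the methylphenidate over the saline lineage. A gene was called at an edgeR adjusted p under 0.05 over all genes tested. The tissue was bulk cortex, so the number of microglia and the RNA per microglial cell cannot be told apart.

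No member passed the threshold. Of all genes tested 0.0273% did (0.0218% with a positive and 0.00546% with a negative log2 difference). The smallest edgeR adjusted p of a member was 0.226, for Aif1. At an unadjusted p under 0.05 there were 3 members, all higher in the methylphenidate lineage, beside 4.2% of all genes tested that were higher, 3.31% that were lower and 7.51% in either direction. DESeq2 called 1 member, Aif1, where it called 0.65% of all genes with an adjusted p. The 3 members were Aif1, Itgam and C1qa, and these were also the only members of the 29 whose lineages did not overlap. That is 10.3% of the members, and 13.5% of all genes tested had lineages that did not overlap, 6.97% higher and 6.51% lower.

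Of the 29 members, 25 had a log2 difference above 0 and 4 below it, where 50.3% of all genes tested lay above 0. The median was 0.14 over the members and 0.0008 over all genes tested. By role, the median was 0.05 for the homeostatic genes, 0.28 for the lineage and pan-leukocyte genes, 0.37 for the activation-linked genes and 0.14 for the border macrophage genes. The count above 0 was 17 of 29 without methylphenidate replicate 3 and 19 of 29 without saline replicate 2. Without methylphenidate replicate 3 the member median was 0.06 and the activation-linked median 0.13. The median for all members was 0.23 without methylphenidate replicate 2.

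**Figure D1:**
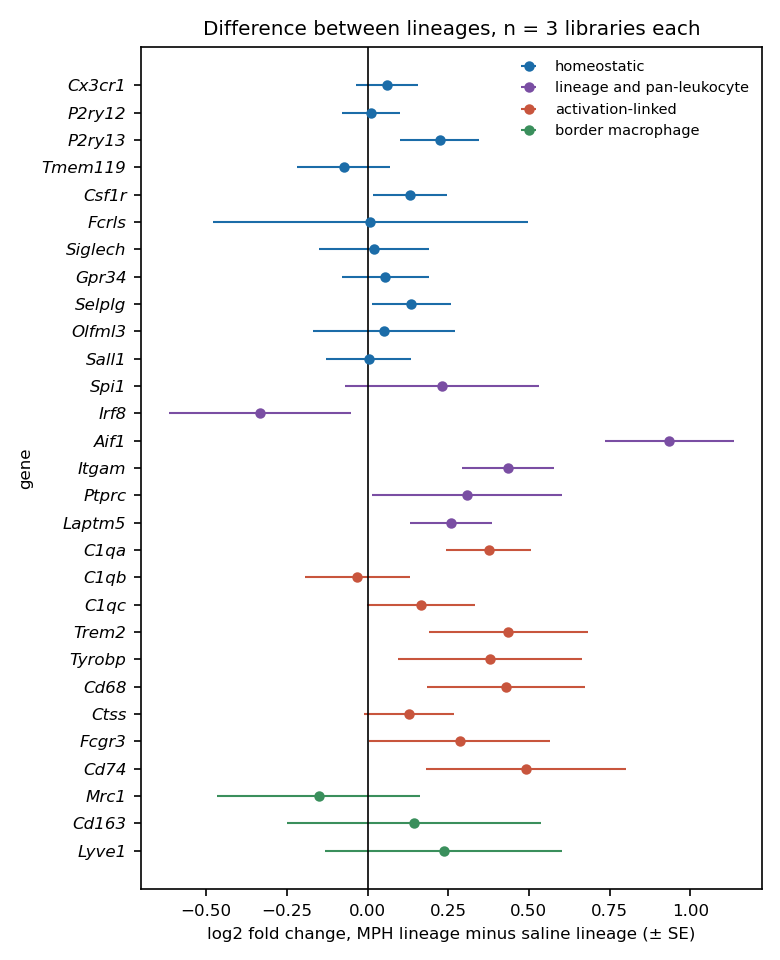
Log2 fold change of each member, methylphenidate (MPH) lineage minus saline lineage, on the x axis, with the standard error as bars, 3 libraries per lineage. Colours give the role. Aif1 stands at 0.93 and the homeostatic genes lie between -0.07 and 0.22.

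Among the homeostatic genes, Cx3cr1, the receptor for the neuronal chemokine fractalkine, had 55.9, 56.4 and 68.9 CPM in methylphenidate replicates 1 to 3, against 60.3, 59.0 and 54.6 CPM in saline replicates 1 to 3. P2ry12, the ADP receptor that guides microglial processes, had 49.6, 48.1 and 52.7 CPM in the methylphenidate libraries and 53.6, 44.4 and 51.2 CPM in the saline libraries. The lineages overlapped in both genes, and their log2 differences were 0.06 (SE 0.10) for Cx3cr1 and 0.01 (SE 0.09) for P2ry12. Tmem119, a membrane protein used as a microglial marker, had 22.0, 18.2 and 26.3 CPM in the methylphenidate and 26.2, 23.2 and 20.6 CPM in the saline libraries. Its log2 difference of -0.07 (SE 0.15) was the only one below 0 in this role group. Csf1r, the receptor on which microglia depend for survival, had 81.2, 80.6 and 109.4 CPM in the methylphenidate libraries and 86.6, 82.8 and 78.1 CPM in the saline libraries (log2 difference 0.13, SE 0.12). Only methylphenidate replicate 3 lay above the saline libraries for Cx3cr1 and for Csf1r.

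P2ry13, a second ADP receptor, had the smallest p of the homeostatic genes. It lay at 15.1, 15.4 and 17.0 CPM in the methylphenidate and at 15.2, 12.5 and 12.9 CPM in the saline libraries, and the lineages overlapped through saline replicate 1 (log2 difference 0.22, SE 0.12, edgeR adjusted p = 0.741). Selplg, which encodes a ligand of selectins, had 23.0, 21.4 and 29.2 CPM in the methylphenidate and 21.9, 21.8 and 23.3 CPM in the saline libraries (log2 difference 0.14, SE 0.12). Gpr34, a receptor for lysophosphatidylserine, Siglech, a sialic-acid-binding lectin, Olfml3, a secreted protein, and Sall1, a transcription factor of microglial identity, had log2 differences of 0.0032 to 0.06. The standard errors of these 4 lay between 0.13 and 0.22. P2ry12 and P2ry13 lie inside the gene Med12l, and Gpr34 inside Cask, on the opposite strand in the GENCODE M21 annotation. Among other overlaps there, Cx3cr1 overlaps Gorasp1 and Csrnp1 on its own strand and Wdr48 on the other. Csf1r overlaps Hmgxb3 on the opposite strand. The libraries were made with a directional kit, but the sources used here do not say whether the counting used strand, so reads from such pairs cannot be told apart. Med12l had a log2 difference of -0.02 (SE 0.09) and Cask one of -0.13 (SE 0.06). Those of Gorasp1, Csrnp1, Wdr48 and Hmgxb3 were 0.12 (SE 0.09), -0.30 (SE 0.14), -0.15 (SE 0.07) and -0.12 (SE 0.09).

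Fcrls, an Fc receptor-like scavenger gene of mouse microglia, was the most variable of the 29 members, and is described for its spread, which was seen first. It had 17.8, 16.7 and 8.07 CPM in methylphenidate replicates 1 to 3 and 9.25, 6.05 and 27.2 CPM in saline replicates 1 to 3. The highest library, saline replicate 3, held 4.49 times the lowest, saline replicate 2, and both belong to the same lineage. Its biological coefficient of variation within lineages was 0.41, higher than that of 92.9% of all genes tested, while the other 10 homeostatic genes had values of 0.095 to 0.20. The 2 lineage means were 14.2 ± 5.34 and 14.2 ± 11.4 CPM (SD, n = 3 each) in the methylphenidate and saline lineages, and the log2 difference of 0.01 carried a standard error of 0.49. Its order of libraries was unlike that of Cx3cr1 or Csf1r, whose highest library, methylphenidate replicate 3, was the second lowest for Fcrls. Other Fc receptor-like genes (Fcrl1, Fcrl5, Fcrl6, Fcrla and Fcrlb) had at most 18 counts in any library.

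**Figure D2:**
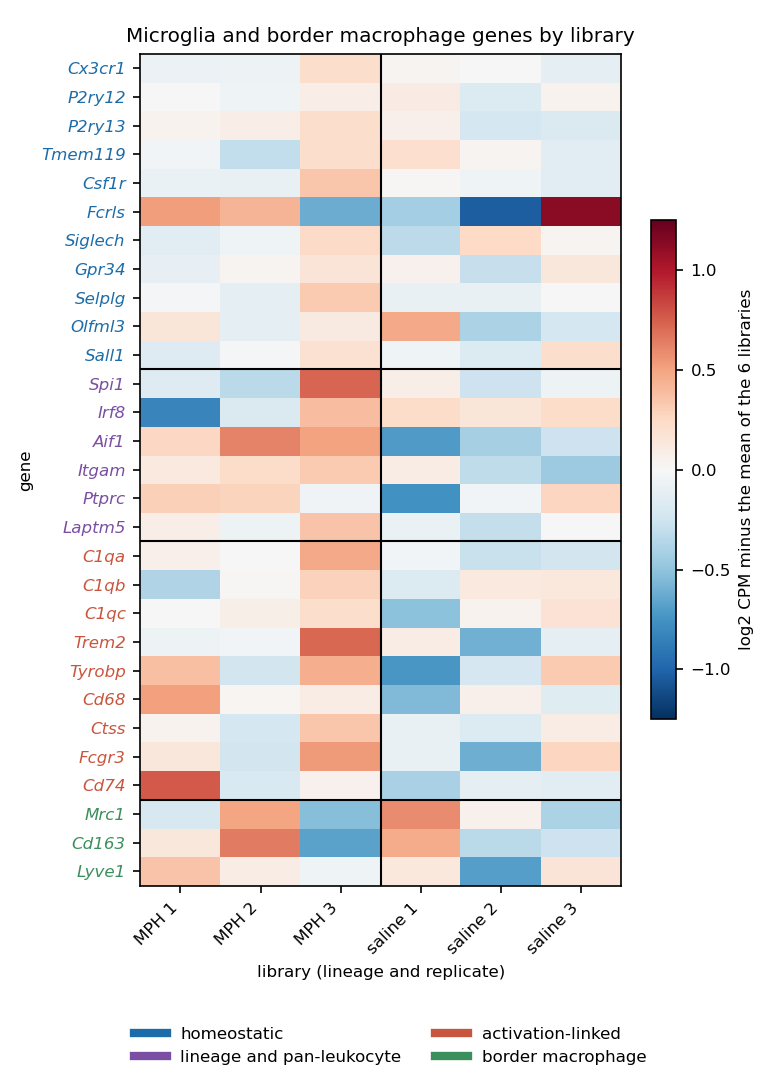
Level of each member (rows, grouped by role) in each library (columns, methylphenidate (MPH) lineage left, saline lineage right), as log2 CPM minus the gene's mean over the 6 libraries. Methylphenidate replicate 3 was the highest library for 17 of the 29 genes, and the Fcrls row shows the widest range.

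Lineage and pan-leukocyte genes held the largest difference of the 29, that of Aif1. Aif1 encodes IBA1, an actin-binding protein of macrophages that is widely used to stain microglia. It had 6.42, 8.29 and 7.62 CPM in methylphenidate replicates 1 to 3, against 3.24, 3.98 and 4.47 CPM in saline replicates 1 to 3. Each methylphenidate library lay above every saline library. The means were 7.44 ± 0.95 and 3.90 ± 0.62 CPM (SD, n = 3 each) in the methylphenidate and saline lineages, for a log2 difference of 0.93 (SE 0.20, edgeR adjusted p = 0.226). Aif1 was in place 76 of 18327 genes by p. DESeq2 put it past the threshold, with a log2 difference of 0.93 (SE 0.25, DESeq2 adjusted p = 0.0286), and limma-voom did not (adjusted p = 0.276). Leaving out any single library left the log2 difference between 0.82 and 1.04, with edgeR adjusted p of 0.231 to 0.606. Relative to Cx3cr1 in the same library, Aif1 stood at 0.115, 0.147 and 0.111 in the methylphenidate and 0.0537, 0.0675 and 0.0818 in the saline libraries. The log2 difference of Cx3cr1 itself was 0.06 (SE 0.10), so this ratio restates the Aif1 difference and is no separate support.

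Aif1 lies on chromosome 17 in the major histocompatibility region. Of the 5 protein-coding genes on each side of it in GENCODE M21, used here for order only, 9 had a row, and 6 of these passed the filter. Ltb, Lta and Apom did not, and Tnf was not analysed here. Lst1, the next gene, which is expressed in leukocytes, had 14, 25 and 29 counts in the methylphenidate and 6, 18 and 7 counts in the saline libraries (log2 difference 1.11, SE 0.55, edgeR adjusted p = 0.698). Lta, which encodes lymphotoxin, had 6, 7 and 30 counts in the methylphenidate libraries and 2, 0 and 3 in the saline libraries and was not tested. Gpank1 was lower without overlap, at 7.12, 5.83 and 5.89 CPM in the methylphenidate and 10.1, 9.45 and 9.35 CPM in the saline libraries (log2 difference -0.62, SE 0.15, edgeR adjusted p = 0.316). D17H6S53E was also lower without overlap (log2 difference -0.39, SE 0.16, edgeR adjusted p = 0.630). Of all genes tested 6.51% were separate and lower. Prrc2a and Bag6, which lie next to Aif1 on the other side, had log2 differences of 0.13 (SE 0.07) and 0.0011 (SE 0.06). The neighbours lay on either side of 0, and none passed the threshold.

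Itgam encodes CD11b, the alpha chain of complement receptor 3. It had 24.9, 26.8 and 28.9 CPM in the methylphenidate and 24.5, 18.4 and 16.7 CPM in the saline libraries (log2 difference 0.44, SE 0.14, edgeR adjusted p = 0.549). The lineages did not overlap, but methylphenidate replicate 1 and saline replicate 1 were almost level. Gm49368, a gene model on the same strand that overlaps Itgam in GENCODE M21, had no counts in the methylphenidate libraries and 10, 0 and 159 counts in saline replicates 1 to 3. With those counts added to Itgam, the values became 24.9, 26.8 and 28.9 CPM in the methylphenidate and 24.9, 18.4 and 23.3 CPM in the saline libraries. The log2 difference was then 0.28 (SE 0.12, edgeR adjusted p = 0.666). Whether reads of 1 transcript were divided between both rows was not tested.

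Spi1, the transcription factor PU.1 that specifies macrophages, had 3.52, 3.09 and 6.59 CPM in the methylphenidate and 4.19, 3.28 and 3.76 CPM in the saline libraries. Methylphenidate replicate 3 alone lay above all saline libraries (log2 difference 0.23, SE 0.30). Irf8, which acts with PU.1 in microglia, had 2.82, 4.46 and 6.63 CPM in the methylphenidate libraries and a narrow 5.94, 5.62 and 5.95 CPM in the saline libraries. Its log2 difference of -0.33 (SE 0.28) was the lowest of the 29, and it was -0.078 without methylphenidate replicate 1 and -0.68 without methylphenidate replicate 3. Laptm5, a lysosomal membrane protein of leukocytes, had 29.3, 26.4 and 35.6 CPM in the methylphenidate and 26.1, 22.5 and 27.7 CPM in the saline libraries (log2 difference 0.26, SE 0.13, edgeR adjusted p = 0.698), and its log2 difference was 0.13 without methylphenidate replicate 3. Ptprc, the leukocyte common antigen CD45, lay between 1.83 and 3.89 CPM over all libraries (log2 difference 0.31, SE 0.29). Leaving out saline replicate 1 gave 0.059, and leaving out saline replicate 3 gave 0.55.

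**Figure D3:**
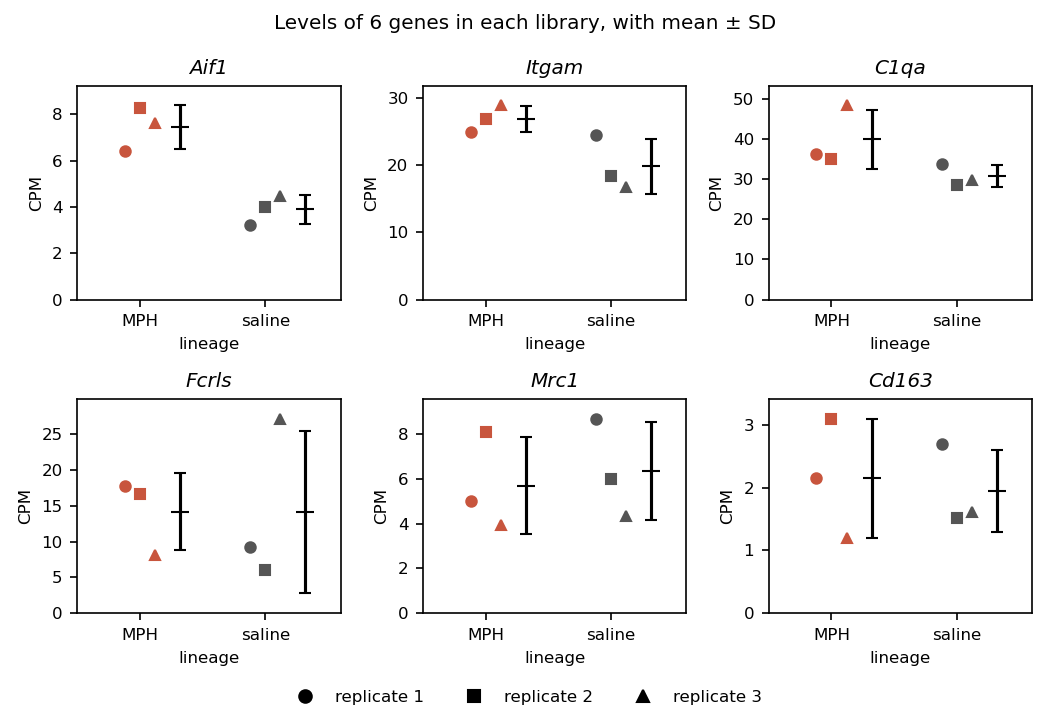
CPM of Aif1, Itgam, C1qa, Fcrls, Mrc1 and Cd163 in each library, methylphenidate (MPH) lineage left of the saline lineage in each panel, with replicates as symbols and the mean ± SD (n = 3) beside them. The lineages are separate for Aif1, Itgam and C1qa and overlap for Fcrls, Mrc1 and Cd163.

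Promoter sequence is shown for Aif1 and Itgam, the members with separate lineages that have an entry in the RefSeq promoter table of GRCm38.p6, and for P2ry12 as a homeostatic gene that did not differ beyond its spread. The 250 bases before the annotated start are printed 5′ to 3′ on the strand of the gene. Capitals mark exact matches to GAGGAA, a purine-rich sequence that PU.1 binds, on either strand.
Aif1, chr17:35176053-35176302, minus strand: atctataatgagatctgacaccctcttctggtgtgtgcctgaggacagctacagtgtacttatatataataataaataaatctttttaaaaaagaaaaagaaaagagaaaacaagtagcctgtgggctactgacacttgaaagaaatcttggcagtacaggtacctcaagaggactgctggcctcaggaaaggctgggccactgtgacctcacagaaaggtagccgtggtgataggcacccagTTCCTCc
Itgam, chr7:128062390-128062639, plus strand: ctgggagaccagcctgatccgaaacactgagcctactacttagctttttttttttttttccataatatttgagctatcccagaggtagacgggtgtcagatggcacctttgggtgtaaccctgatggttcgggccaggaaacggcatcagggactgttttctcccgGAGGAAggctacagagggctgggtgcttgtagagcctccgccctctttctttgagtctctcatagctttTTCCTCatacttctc
P2ry12, chr3:59262986-59263235, minus strand: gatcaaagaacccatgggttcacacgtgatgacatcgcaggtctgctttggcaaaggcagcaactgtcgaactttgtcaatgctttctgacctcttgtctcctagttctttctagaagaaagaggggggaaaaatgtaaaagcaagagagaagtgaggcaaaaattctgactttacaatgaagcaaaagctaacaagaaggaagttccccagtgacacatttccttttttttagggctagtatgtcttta
The Aif1 window held 1 match, whose first base lay 7 bases before the start. The Itgam window held 2, at 84 and 15 bases before the start, and the P2ry12 window held no exact match. Other sequences with GGAA, which the P2ry12 window also holds, were not marked. A window without GAGGAA may therefore still hold a PU.1 site. Of the 29 members 20 matched an entry by symbol, and 13 of these 20 (65.0%) had GAGGAA in the window, against 25.9% of all 27025 genes in the table. The 13 were Aif1, C1qb, C1qc, Cd68, Ctss, Fcgr3, Fcrls, Itgam, Laptm5, Mrc1, P2ry13, Ptprc and Trem2. The lineages overlapped in all of these except Aif1 and Itgam, so the motif was also present in members that did not separate. Counted by entry, since some genes have several starts, the share was 56.0% of 25 member entries against 23.3% of 32851 entries. The longer GAGGAAGT, which contains GAGGAA, was found in 1 of the 20 members, C1qc, and in 2.79% of all genes. The ETS-IRF composite element, at which PU.1 and IRF8 bind together, was found in none of the 20 and in 2.68% of all genes. The motifs were searched on both strands after the members were known, and a match describes letters only.

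Activation-linked genes lay mostly above 0, with 8 of 9 log2 differences positive and none past the threshold. All 9 had counts in every library of both lineages, and C1qa and Ctss had the highest levels per length of all members. The name of the group is a label and does not measure activation. C1qa, C1qb and C1qc encode the chains of C1q, which starts the classical complement pathway and tags synapses and debris. C1qa had 36.4, 34.9 and 48.4 CPM in the methylphenidate libraries, against 33.9, 28.6 and 29.8 CPM in the saline libraries. The lineages did not overlap (log2 difference 0.37, SE 0.13, edgeR adjusted p = 0.572). C1qb had 16.8, 22.1 and 26.8 CPM in the methylphenidate and 19.5, 23.8 and 23.9 CPM in the saline libraries, with a log2 difference of -0.03 (SE 0.16). C1qc had 19.1, 20.1 and 22.4 CPM in the methylphenidate and 13.4, 19.8 and 21.8 CPM in the saline libraries, with one of 0.16 (SE 0.17). The log2 differences of the 3 chains, whose genes all lie on chromosome 4, ran from -0.03 to 0.37. The ratio of C1qa to C1qb within a library was 2.17, 1.58 and 1.80 in the methylphenidate and 1.74, 1.20 and 1.24 in the saline libraries, which overlapped through saline replicate 1. Without methylphenidate replicate 3 the log2 difference of C1qa was 0.21.

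Trem2, a lipid receptor that drives the microglial response to damage, had 9.61, 9.80 and 16.5 CPM in the methylphenidate and 10.7, 6.60 and 9.26 CPM in the saline libraries. Only methylphenidate replicate 3 stood apart (log2 difference 0.44, SE 0.25, edgeR adjusted p = 0.749). Its signalling adaptor Tyrobp had 8.12, 5.30 and 8.56 CPM in the methylphenidate and 3.73, 5.35 and 7.82 CPM in the saline libraries (log2 difference 0.38, SE 0.29), and leaving out saline replicate 1 gave 0.15 and saline replicate 3 gave 0.69. The ratio of Trem2 to Tyrobp ran from 1.18 to 1.93 over the methylphenidate and from 1.19 to 2.86 over the saline libraries. Without methylphenidate replicate 3 the log2 difference of Trem2 was 0.13.

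Cd68, a lysosomal protein of phagocytes, had 5.76, 4.07 and 4.28 CPM in the methylphenidate and 2.70, 4.18 and 3.60 CPM in the saline libraries, and methylphenidate replicate 2 lay inside the saline range (log2 difference 0.43, SE 0.24, edgeR adjusted p = 0.750). Cd74, the invariant chain of MHC class II, had 4.31, 2.18 and 2.59 CPM in the methylphenidate and 1.87, 2.30 and 2.27 CPM in the saline libraries. Methylphenidate replicate 1 stood above the other 5 libraries for Cd74 (log2 difference 0.49, SE 0.31), and without it the log2 difference was 0.15. Ctss, a lysosomal protease, lay between 35.3 and 52.2 CPM and Fcgr3, an activating IgG receptor, between 3.16 and 7.12 CPM over all libraries. Their log2 differences were 0.13 (SE 0.14) and 0.29 (SE 0.28), and Fcgr3 has near relatives whose reads may be shared. The log2 difference of Fcgr3 was 0.064 without methylphenidate replicate 3 and 0.081 without saline replicate 2, and that of Cd68 was 0.26 without methylphenidate replicate 1 and 0.27 without saline replicate 1.

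The role groups were set against each other within each library by the mean of their centred log2 CPM. Genes of both groups had counts in every saline library, so the contrast compares groups of genes and does not measure activation. The activation-linked mean minus the homeostatic mean was 0.15, -0.06 and 0.22 in methylphenidate replicates 1 to 3 and -0.28, -0.0007 and -0.03 in saline replicates 1 to 3. Its means of 0.10 ± 0.15 and -0.10 ± 0.16 (SD, n = 3 each) in the methylphenidate and saline lineages differed by 0.21. Methylphenidate replicate 2 lay inside the saline range, so the lineages overlapped. The difference was 0.12 without saline replicate 1, in which Siglech, Aif1, Ptprc, C1qc, Tyrobp, Cd68 and Cd74 were at their lowest while P2ry12 and Olfml3 were at their highest. No test was made on these means because the members were chosen with results of these data known.

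Border macrophage genes followed another order of libraries. Mrc1, the mannose receptor CD206, had 5.01, 8.11 and 3.95 CPM in the methylphenidate and 8.68, 5.98 and 4.34 CPM in the saline libraries (log2 difference -0.15, SE 0.31). Cd163, the haemoglobin scavenger receptor, had 2.15, 3.09 and 1.19 CPM in the methylphenidate and 2.70, 1.52 and 1.61 CPM in the saline libraries (log2 difference 0.14, SE 0.39). Lyve1, a hyaluronan receptor, had 1.61, 1.33 and 1.19 CPM in the methylphenidate and 1.37, 0.742 and 1.41 CPM in the saline libraries (log2 difference 0.24, SE 0.37). The lineages overlapped in all 3 genes. Methylphenidate replicate 2 and saline replicate 1 were the 2 highest libraries for Mrc1 and for Cd163, and methylphenidate replicate 3 was the lowest for both. The sign of the log2 difference of Mrc1, of Cd163 and of Lyve1 turned with the library left out.

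Methylphenidate replicate 3 was the highest library for 17 of the 29 members (58.6%) and for 19.2% of all genes tested. It was highest for 6 of 11 homeostatic, 4 of 6 lineage and pan-leukocyte and 7 of 9 activation-linked genes, and for none of the 3 border macrophage genes. Saline replicate 2 was the lowest library for 11 members (37.9%) and for 17.2% of all genes tested. A separate list of 12 border macrophage genes, of which 11 were tested, had its lowest value in methylphenidate replicate 3 for 7. Some genes of the list were near the floor there, with 0 counts for Cd209a and 3 each for Pf4, Ms4a7 and Folr2. Folr2 was not among the 7, since its lowest library was saline replicate 1. Stab1, at 16.7 CPM there, lay inside the range of the other libraries. The 12 genes summed to 44.5, 45.3 and 40.3 CPM in the methylphenidate and 48.5, 43.3 and 45.6 CPM in the saline libraries. Most of each sum came from Stab1, Dab2 and Cp, at 16.7, 12.1 and 5.81 CPM in methylphenidate replicate 3. The sum therefore says little about the genes of low count. The genes of smallest p in that list were Cp, a copper-binding ferroxidase, and F13a1, a clotting factor subunit of macrophages, with log2 differences of -0.42 (SE 0.16) and -0.55 (SE 0.33). Meningeal fibroblast markers had their lowest value in methylphenidate replicate 3 for 6 of 8 tested, against 19.6% of all genes tested. Their summed level was 187, 198 and 120 CPM in methylphenidate replicates 1 to 3 and 147, 200 and 165 CPM in saline replicates 1 to 3. Choroid plexus markers summed to 501, 202 and 24.6 CPM in the methylphenidate and 44.3, 657 and 420 CPM in the saline libraries. Whether the amount of border tissue in a sample plays a part in the border macrophage values was not tested.

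**Figure D4:**
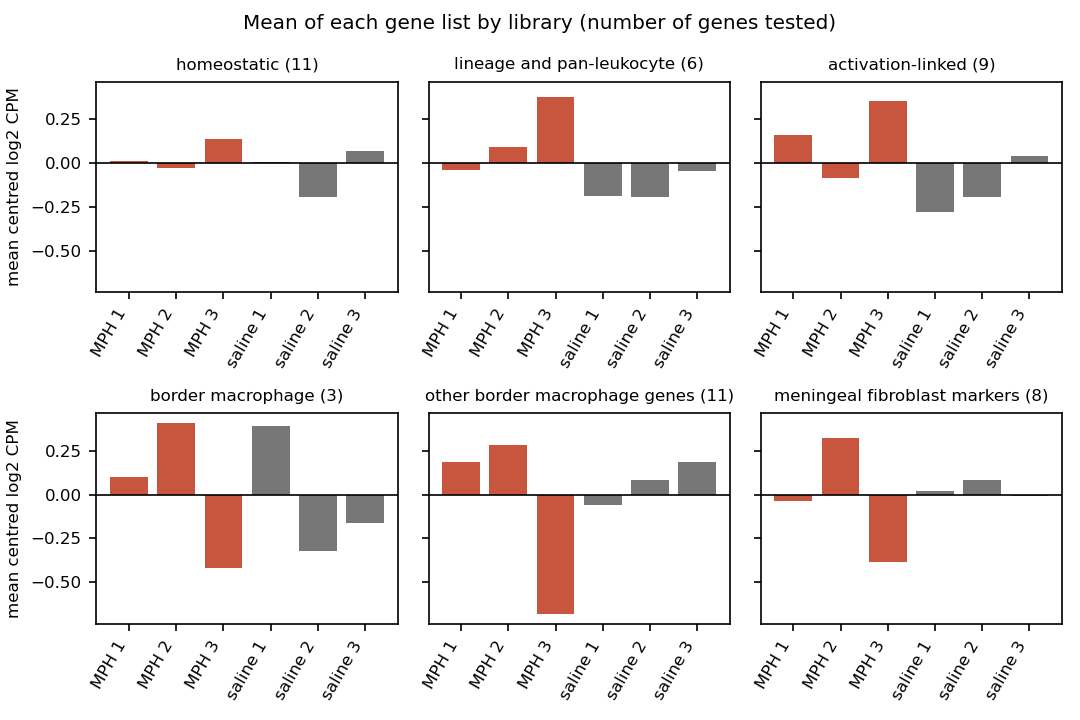
Mean of the centred log2 CPM of each gene list (y axis) in each library, methylphenidate (MPH) lineage left and red, saline lineage right and grey, with the number of genes tested in each title. In methylphenidate replicate 3 the upper 3 lists stand at 0.14, 0.38 and 0.35, while the border macrophage, other border macrophage and meningeal fibroblast lists stand at -0.42, -0.68 and -0.38. The other border macrophage list includes genes with 0 to 3 counts in that library.

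Striatal projection neuron markers were also higher on average in the methylphenidate lineage. All 10 were tested and all 10 had log2 differences above 0, with a median of 1.32, although none passed the threshold. They summed to 626, 350 and 843 CPM in the methylphenidate and 355, 295 and 256 CPM in the saline libraries, with methylphenidate replicate 2 inside the saline range. Methylphenidate replicate 3 was the highest library for 9 of the 10. The markers of smallest p were Pde10a, a phosphodiesterase, and Drd1, a dopamine receptor, with log2 differences of 1.17 (SE 0.24) and 0.98 (SE 0.21). Cortical neuron markers had a median log2 difference of -0.09 over 10 genes, endothelial and mural markers one of -0.01 over 9, and astrocyte and oligodendrocyte markers one of 0.10 over 10, with no gene past the threshold. The part of striatal tissue in the microglial values was not tested.

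Between genes, levels can be compared only per length, and CPM per kilobase of exon (GENCODE M21 lengths, mean of the 6 libraries) was used for this. C1qa was highest at 34.0 CPM per kilobase, followed by Ctss at 30.5, and their ranges over libraries overlapped. P2ry12 and C1qb at 20.4 each, Csf1r at 17.7, C1qc at 16.1, Cx3cr1 at 13.1 and Selplg at 12.6 came next, P2ry12 did not reach the range of Ctss, and each of the others overlapped its neighbour in the order. The bottom of the order was Ptprc at 0.634, Cd163 at 0.456 and Lyve1 at 0.441. Mrc1 was the highest of the border macrophage genes, at 1.12.

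The ligands and partners of these receptors showed small differences. Of 18 genes 17 were tested, none passed and the lineages overlapped in all 17, with a median log2 difference of 0.01. Il34 and Csf1, the ligands of Csf1r, had log2 differences of 0.01 (SE 0.09) and 0.10 (SE 0.14). Cx3cl1, the ligand of Cx3cr1, had 671, 627 and 596 CPM in the methylphenidate and 633, 603 and 647 CPM in the saline libraries (log2 difference 0.01, SE 0.07). The members of smallest p were Dock2, an activator of Rac in leukocytes, and Tgfb1, which maintains microglial identity, with log2 differences of 0.23 (SE 0.24) and -0.15 (SE 0.19).

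A further list of 18 microglial identity genes had 14 above 0, where 50.3% of all genes tested lay above 0, and a median log2 difference of 0.22. None of the 18 passed the threshold, and the lineages were separate in 4 higher and 1 lower, where 6.97% of all genes tested were separate and higher and 6.51% separate and lower. Its gene of smallest p was Sparc, a matrix glycoprotein of microglia that astrocytes and endothelium also express, at 203, 187 and 213 CPM in the methylphenidate and 164, 136 and 164 CPM in the saline libraries (log2 difference 0.38, SE 0.09, edgeR adjusted p = 0.266). Slc2a5, a fructose transporter found in microglia, had a log2 difference of 0.43 (SE 0.21).

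Genes of disease-associated microglia lay on both sides of 0. Of 18 genes 15 were tested, 9 above 0 and 6 below, with a median log2 difference of 0.02 and none past the threshold. Lpl, a lipoprotein lipase, had 24.4, 29.5 and 34.1 CPM in the methylphenidate and 19.1, 18.9 and 20.9 CPM in the saline libraries (log2 difference 0.58, SE 0.13, edgeR adjusted p = 0.227), without overlap. Lpl is also expressed by neurons. Ctsl, a lysosomal protease, had a log2 difference of -0.21 (SE 0.07, edgeR adjusted p = 0.555). Cst7, Itgax and Clec7a, which mark these cells most closely, lay below the filter, and Cst7 had at most 3 counts in any library.

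The other immune lists were near 0 or low. The median log2 difference was 0.09 over 6 MHC class II genes, -0.07 over 13 complement genes beyond C1q, 0.0035 over 8 tested of 15 cytokine and chemokine genes and -0.05 over 14 interferon response genes, and no gene passed in any of them. Serping1, an inhibitor of complement, had a log2 difference of -0.53 with a standard error of 0.23. Stat2, a transducer of interferon signals, had one of 0.18 (SE 0.10). Ciita, the regulator of MHC class II genes, had one of -0.52 (SE 0.33), and Nlrp3, an inflammasome sensor, one of 0.36 (SE 0.41).

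Markers of blood leukocytes were scarce. Neutrophil and monocyte markers summed to 7.12, 2.81 and 3.29 CPM in the methylphenidate and 0.837, 2.89 and 0.992 CPM in the saline libraries, and lymphocyte markers to 3.40, 1.79 and 5.48 CPM in the methylphenidate and 2.02, 1.09 and 1.16 CPM in the saline libraries. Of these lists 2 of 10 and 1 of 11 genes were tested, and Ly6g, Cd3d, Cd3g and Cd8a had no row. The markers of smallest p were Ly6c2 and Cd4, with log2 differences of 1.73 (SE 0.90) and 1.59 (SE 0.60). Ly6c2 had 6.00, 1.86 and 1.15 CPM in the methylphenidate and 0.152, 2.30 and 0.248 CPM in the saline libraries. Cd4, which some macrophages also carry, had 2.90, 1.05 and 5.15 CPM in the methylphenidate and 1.75, 0.664 and 0.579 CPM in the saline libraries. Cd4 was the largest part of the lymphocyte sum in every library. Cd3e, which defines T cells, had 1 count in methylphenidate replicate 2 and 0 in the other 5 libraries. S100a8, a neutrophil gene, had 7, 2 and 9 counts in the methylphenidate libraries and 0 in each saline library, and was not tested. S100a9, of the same list, had 3, 9 and 7 counts in the methylphenidate and 0, 0 and 6 counts in the saline libraries. Ngp, Camp, Ltf, Plac8 and Retnlg had at most 7 counts in any library, and the lineages overlapped in each. Ccr2 was higher without overlap (log2 difference 0.59, SE 0.46), as were 6.97% of all genes tested. Red cell genes summed to 255, 145 and 154 CPM in the methylphenidate and 305, 134 and 160 CPM in the saline libraries. The part of blood cells in Aif1, Itgam and C1qa was not tested.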

How the data were processed

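Poly(A) RNA of cortex was sequenced from directional libraries, per the labels' protocols. HISAT2 2.2.1, StringTie 2.2.1, fastp 0.23.4, bcl2fastq 2.19 and the build GRCm39 are listed, with no roles, per the submitters' processing notes. The authors deposited whole-number counts per Ensembl gene, 1 column per library. For the counting step, annotation release and strand setting: not given in the sources used here. Of the 33274 rows, 985 had no symbol (0.175% of a library's counts or less).

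Counts were analysed with edgeR 4.0.16 in R 4.3.3 (filterByExpr, TMM, two-sided quasi-likelihood test on lineage without covariates, Benjamini-Hochberg over 18327 genes, threshold 0.05). Each standard error was the absolute log2 difference over the root of F. Centred values used log2 CPM with a prior count of 2. DESeq2 1.42.0, limma-voom (limma 3.58.1), other scalings and filters, a replicate block and leaving out each library were alternatives. The script was tested on simulated data. Between libraries of a lineage, chi-square over its degrees of freedom was 13.0 to 19.9, so none was a duplicate. Exon lengths, overlaps and gene order came from GENCODE M21 (GRCm38), of which no coordinates are given, and promoter coordinates from RefSeq (GRCm38.p6), not the GRCm39 of the counts.

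Members, lists and tests were chosen with earlier results of these data known. All members are given. Those of smallest p in each role group and the defining genes have values per library, and other lists give up to 2 genes of smallest p. Fcrls, the named neighbours of Aif1, the named genes that overlap a member and the further genes named for their role were added after values were seen.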

Additional observations from a re-analysis of the deposited data

How the results depend on the processing

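No member was past the edgeR threshold under the other scalings, filters and library sizes, with the replicate block or without any 1 library, and DESeq2 called 1, Aif1. The 12 members whose log2 difference kept its sign without any 1 library were P2ry13, Irf8, Aif1, Itgam, Ptprc, Laptm5, C1qa, Trem2, Tyrobp, Cd68, Fcgr3 and Cd74. The other 17 changed sign without at least 1 library, and the cause was not tested. Their ranges were -0.046 to 0.11 for Cx3cr1, -0.065 to 0.066 for P2ry12, -0.22 to 0.051 for Tmem119, -0.030 to 0.21 for Csf1r, -0.35 to 0.89 for Fcrls, -0.12 to 0.16 for Siglech, -0.065 to 0.15 for Gpr34, -0.0081 to 0.23 for Selplg, -0.12 to 0.36 for Olfml3, -0.097 to 0.12 for Sall1, -0.18 to 0.43 for Spi1, -0.20 to 0.13 for C1qb, and -0.019 to 0.31 for C1qc, -0.029 to 0.26 for Ctss, -0.50 to 0.14 for Mrc1, -0.22 to 0.46 for Cd163 and -0.0076 to 0.38 for Lyve1. Sall1 also stood at -0.0024 in DESeq2. Without any 1 library the homeostatic median ran from -0.065 to 0.093, the activation-linked median from 0.13 to 0.46 and the border macrophage median from -0.22 to 0.36. The activation-linked minus homeostatic difference ran from 0.12 to 0.29, and it was 0.19 with Cd74 moved to the border macrophage genes.

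The replicate block left the member median at 0.16 and the count of members past the threshold at 0. The replicate numbers do not pair the animals by any label, and the correlation of deviations of same-numbered libraries was -0.04, 0.09 and -0.02. The counts above 0 without a library and the sum of Itgam with Gm49368 were chosen after seeing the data. The standard error was smallest for P2ry12 (0.09) and largest for Fcrls (0.49), with a median of 0.17 over the members. It was 0.37 for Lyve1, which had the lowest count. The part of depth in these standard errors was not tested.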
